A study of Homo sapiens with 9 samples.

Results

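The genes described here are 10 members of the AP-1 and immediate early group: FOS, FOSB, FOSL1, FOSL2, JUN, JUNB, JUND, EGR1, ATF3 and IER3. They were taken as a list of symbols from the 64253 gene identifiers of the series, and each symbol was tied to its Ensembl identifier through the authors' deposited table. RNA was sequenced from IMR90 cells, a human fetal lung fibroblast line with a finite lifespan, in 9 libraries that fall into 3 groups of 3 (replicates a, b and c). Control cells carried the pLKO.1 lentiviral vector, which the sample labels describe as empty and the treatment protocol as carrying GFP. Cells of the shRRM2 group, labelled senescent, expressed a short hairpin that targets RRM2, a subunit of the enzyme that makes dNTPs. Cells of the shRRM2/shp16 group, labelled as senescence bypass, expressed that hairpin together with one that targets p16, a CDKN2A product that blocks the cell cycle. All 3 groups were grown at 2% oxygen, used at population doubling 30, infected again after 24 hours and kept in 3 ug/mL puromycin for 7 days, so the controls also went through infection and drug selection. There was no group with the p16 hairpin alone, and the labels do not say whether a, b and c were separate infections, so p-values measure the spread between these libraries, which may be technical.

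AP-1 is a dimer of 2 leucine zipper proteins that binds short DNA elements and switches on genes of growth, matrix turnover and inflammation. JUN proteins can pair with each other or with FOS proteins, whereas FOS proteins need a JUN partner, so the make-up of the pool sets which dimers can form. FOS, FOSB, EGR1, JUN, JUNB, ATF3 and IER3 are induced within minutes of a growth factor or stress signal through kinase cascades. Serum response factor takes part for some of them, EGR1 included. The mRNAs of these genes are short-lived. FOSL1 and FOSL2 follow later and persist, and in fibroblasts AP-1 is known for driving collagenases and inflammatory mediators.

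Read counts assigned to genes ranged from 15770895 to 24873291 per library, and 16561 genes passed the filter on low counts. Values are given as CPM, read counts scaled to a common library size with TMM factors, and the common biological coefficient of variation between replicates was 0.027. The share of uniquely aligned reads that fell outside genes moved with the groups without overlap, at 17.6% to 18.9% in control libraries, 27.7% to 28.8% in shRRM2 libraries and 23.5% to 24.4% with both hairpins, an order in which shRRM2 stands at one extreme as it does for FOS, FOSB and EGR1, and its part in the results was not tested. Ambiguous reads, those that could not be given to a single gene, were fewest in shRRM2. They made up 3.74% to 4.73% of uniquely aligned reads there and 4.96% to 6.02% in the other groups, and their part was not tested either. For shRRM2 replicate c the count file and the authors' RPKM column do not hold the same values, and which of them is the labelled library could not be settled, so its counts used here may be the mismatched ones. Without that library 1 member was higher and 6 were lower in shRRM2 against control, and 6 were higher and 3 lower in shRRM2/shp16 against shRRM2, the same numbers as with it. RRM2 lay between 481 and 491 CPM in control libraries, 60.0 and 63.2 in shRRM2 libraries and 175 and 181 with both hairpins. The shRRM2/shp16 group thus differs from shRRM2 in its RRM2 level as well as in the p16 hairpin, and the part of each was not tested. CDKN2A, which is counted for the whole gene and not for the p16 transcript alone, lay at 5.95 to 6.15, 5.97 to 6.79 and 3.93 to 4.57 CPM. All 8 fibroblast markers examined were expressed, with a summed level of 26838 to 27701 CPM in control libraries, 26256 to 27052 in shRRM2 libraries and 22096 to 22696 with both hairpins. Most of that sum is COL1A1 and COL1A2, and single markers moved further. In shRRM2/shp16 against control 5 of the 8 were lower and 2 higher, beside 32.4% and 30.0% of all tested genes. VIM had a log2 fold change of -1.32 there and COL3A1 one of 1.08. Of the markers of other cells, the 4 epithelial genes summed to at most 2.15 CPM with KRT5 at 0 reads, the 3 endothelial genes to at most 2.48 CPM and the 3 leukocyte genes to at most 0.698 CPM. The 2 smooth muscle genes, almost all of it DES, summed to 7.04 to 8.22 CPM in control libraries, 4.53 to 4.63 in shRRM2 libraries and 0.806 to 1.15 with both hairpins, and the part of these shifts in the results was not tested. In bulk RNA, fewer cells of a kind and less RNA per cell cannot be told apart.

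Promoters of JUN, FOSL2, FOS, FOSB and EGR1, all lower in shRRM2 than in control, are shown to let the regulatory elements near their start sites be read beside the values. They are RefSeq windows on GRCh38.p14, from 250 bases before the start of the transcript to 50 after it, written 5′ to 3′ on the gene's own strand, and 8 of the 10 genes had one (not FOSL1 or IER3). The windows of JUNB, JUND and ATF3 were searched but are not printed. Capitals mark matches to the AP-1 element TGACTCA, to TATAAA and to the CArG box bound by serum response factor. They also mark the CRE TGACGTCA and its relaxed form TGACNTCA (added after the windows were read). TGACTCA is shorter and cannot match TGACNTCA, so its matches are not among those of the relaxed form. EGR1 sites GCGGGGGCG and GCGTGGGCG and the kappa B site of NF-kB were searched as well, always on both strands. The windows lie at chr1:58783998-58784297 for JUN (minus strand), chr2:28392608-28392907 for FOSL2, chr14:75278578-75278877 for FOS, chr19:45467746-45468045 for FOSB and chr5:138465229-138465528 for EGR1 (all plus strand).
JUN: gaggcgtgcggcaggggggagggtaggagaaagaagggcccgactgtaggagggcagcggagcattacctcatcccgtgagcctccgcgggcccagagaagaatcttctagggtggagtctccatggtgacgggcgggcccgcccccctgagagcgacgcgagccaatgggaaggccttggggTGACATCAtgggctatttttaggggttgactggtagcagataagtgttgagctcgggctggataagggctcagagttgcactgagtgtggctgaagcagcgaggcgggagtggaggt
FOSL2: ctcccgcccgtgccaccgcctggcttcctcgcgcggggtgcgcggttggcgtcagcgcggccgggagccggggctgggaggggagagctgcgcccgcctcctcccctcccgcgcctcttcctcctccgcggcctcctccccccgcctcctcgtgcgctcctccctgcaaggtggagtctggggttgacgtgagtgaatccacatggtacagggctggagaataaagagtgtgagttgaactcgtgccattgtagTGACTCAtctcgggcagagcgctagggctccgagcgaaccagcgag
FOS: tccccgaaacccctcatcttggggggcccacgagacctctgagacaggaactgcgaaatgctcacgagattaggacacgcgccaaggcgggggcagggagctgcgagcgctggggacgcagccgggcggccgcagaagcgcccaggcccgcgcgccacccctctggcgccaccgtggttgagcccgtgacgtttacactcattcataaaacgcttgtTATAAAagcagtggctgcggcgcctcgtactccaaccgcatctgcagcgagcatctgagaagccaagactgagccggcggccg
FOSB: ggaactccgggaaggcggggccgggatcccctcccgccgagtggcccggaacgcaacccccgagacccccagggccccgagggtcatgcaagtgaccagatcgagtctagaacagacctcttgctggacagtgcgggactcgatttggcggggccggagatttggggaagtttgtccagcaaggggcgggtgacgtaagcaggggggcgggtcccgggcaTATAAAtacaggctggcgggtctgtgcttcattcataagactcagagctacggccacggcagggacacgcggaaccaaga
EGR1: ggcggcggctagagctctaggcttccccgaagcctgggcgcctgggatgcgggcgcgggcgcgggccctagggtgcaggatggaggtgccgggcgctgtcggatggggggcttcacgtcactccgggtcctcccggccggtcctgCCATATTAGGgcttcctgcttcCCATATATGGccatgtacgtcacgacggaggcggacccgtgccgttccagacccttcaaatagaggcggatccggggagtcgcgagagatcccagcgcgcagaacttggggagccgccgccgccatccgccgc

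JUN carries TGACATCA from -67 to -60, counted from the RefSeq transcript's first base as +1, and FOSL2 carries TGACTCA from +5 to +11. The windows of JUN and FOSL2 lie wholly inside the GENCODE gene spans given below, so these positions hold for the RefSeq starts only. EGR1 holds 2 CArG boxes, from -105 to -96 and from -83 to -74. FOS, FOSB and JUNB each hold TATAAA at nearly the same place, from -33 to -28, -30 to -25 and -31 to -26. JUND has TGACGTCA from -200 to -193, which is also a match to the relaxed form, and ATF3, which has 2 annotated start sites, has TGACATCA from -123 to -116 at the first and TATAAA from -230 to -225 at the second. Among 35116 promoter windows of the same length, TGACTCA was found in 4.95%, TGACGTCA in 1.85%, TGACNTCA in 7.72%, TATAAA in 11.5% and a CArG box in 1.29%. The 8 genes, with ATF3 counted once for its 2 windows, held them in 1, 1, 3, 4 and 1 cases. EGR1 sites (5.77% of windows) and kappa B sites (11.3%) were found in none of the 8. Bases outside these 300 were not searched, so a gene without a match here may hold the element elsewhere. These matches describe letters and not bound sites.

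FOS and FOSB, partners of JUN that are induced fast and decay fast, were lowest in shRRM2 and higher in shRRM2/shp16. FOS (ENSG00000170345; GRCh38 chromosome 14, 75278774 to 75282230, plus strand) was at 7.25, 8.16 and 7.69 CPM in the control libraries, 3.87, 3.35 and 3.67 in the shRRM2 libraries and 11.3, 12.4 and 11.1 with both hairpins. The 3 groups did not overlap, and the doubly targeted cells stood above control. The log2 fold change was -1.08 ± 0.13 (SE) in shRRM2 against control (edgeR adjusted p 6.53e-10), 1.68 ± 0.12 in shRRM2/shp16 against shRRM2 (adjusted p 1.32e-16) and 0.60 ± 0.10 in shRRM2/shp16 against control (adjusted p 7.81e-07). These values rest on 58 to 64 reads per library in shRRM2 and 129 to 249 in the others. FOSB (ENSG00000125740; chromosome 19, 45467995 to 45475179, plus strand) was at 9.09, 9.17 and 8.40 CPM in the control libraries, 2.35, 3.69 and 3.16 in the shRRM2 libraries and 6.87, 6.52 and 7.31 with both hairpins. Its shRRM2 libraries were the most spread of any counted member, with a coefficient of variation of 22.1% on 37 to 64 reads, yet no group overlapped another. FOSB fell by 1.53 ± 0.13 on the log2 scale in shRRM2 against control (adjusted p 2.29e-13) and rose by 1.16 ± 0.14 in shRRM2/shp16 against shRRM2 (adjusted p 1.56e-09). Unlike FOS, it did not regain the control level (-0.37 ± 0.11, adjusted p 0.00335). A limma fit of the deposited RPKM (pseudocount 0.1) lost that last call, giving -0.24 (adjusted p 0.216; 0.00204 to 0.216 over all fits), and so did the same fit of the 8 columns that match their counts (adjusted p 0.169). FOSB lies antisense to and overlaps ERCC1, and the strand setting of the counting is not given in the sources used here, so its reads are uncertain.

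EGR1 (ENSG00000120738; chromosome 5, 138465490 to 138469315, plus strand), a zinc finger factor whose promoter is a classical target of serum response factor, showed the same low point with little return. It was at 90.6, 95.2 and 95.6 CPM in the control libraries, 59.8, 57.2 and 59.1 in the shRRM2 libraries and 61.8, 63.8 and 72.3 with both hairpins. Control stood clear of both other groups, while the shRRM2/shp16 libraries lay just above those of shRRM2, with replicate c set higher than its partners. The fall in shRRM2 against control was -0.67 ± 0.05 on the log2 scale (adjusted p 1.48e-16), and that in shRRM2/shp16 against control was -0.51 ± 0.05 (adjusted p 2.44e-13). EGR1 was higher in shRRM2/shp16 than in shRRM2 by 0.17 ± 0.05 (adjusted p 0.00287), a call that rested on 1 library. Without shRRM2/shp16 replicate c the difference was 0.10 with an adjusted p of 0.0791 (3.20e-04 to 0.475 over all fits).

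FOSL1, FOSL2 and JUN fell in shRRM2 and fell again in shRRM2/shp16. FOSL1 (ENSG00000175592; chromosome 11, 65892049 to 65900573, minus strand), which encodes FRA-1, was at 319, 321 and 331 CPM in the control libraries, 173, 172 and 182 in the shRRM2 libraries and 84.1, 82.6 and 88.6 with both hairpins. The coefficient of variation was at most 3.71% in each group, and the steps between groups were far wider than that spread. FOSL1 changed by -0.88 ± 0.03 in shRRM2 against control (adjusted p 1.66e-26) and by -1.05 ± 0.04 in shRRM2/shp16 against shRRM2 (adjusted p 1.06e-27). It was left at 26.3% of the control level in shRRM2/shp16 (-1.93 ± 0.03, adjusted p 1.79e-38), the widest change of the 9 counted members in any comparison. JUN (ENSG00000177606; chromosome 1, 58780788 to 58784327, minus strand), the founding JUN protein and a positive regulator of its own promoter, was at 138, 131 and 134 CPM in the control libraries, 96.2, 91.0 and 89.2 in the shRRM2 libraries and 63.6, 60.7 and 59.2 with both hairpins. No library of 1 group reached another, and the fall was of similar size at each step, at -0.54 ± 0.04 (adjusted p 2.93e-16) and -0.59 ± 0.04 (adjusted p 3.01e-16). Against control, JUN in shRRM2/shp16 had a log2 fold change of -1.13 ± 0.04 (adjusted p 2.60e-27). FOSL2 (ENSG00000075426; chromosome 2, 28392448 to 28417312, plus strand), which encodes FRA-2, moved least of these, at 178, 180.2 and 181 CPM in the control libraries, 159.6, 167 and 159.6 in the shRRM2 libraries and 132, 135 and 133 with both hairpins. Its steps were -0.15 ± 0.03 (adjusted p 9.66e-05) and -0.28 ± 0.03 (adjusted p 6.34e-10), and -0.43 ± 0.03 against control in shRRM2/shp16 (adjusted p 1.16e-15). The first step lost its call in the limma fit of the deposited RPKM, which gave -0.08 (adjusted p 0.0539; 2.56e-07 to 0.0539 over all fits). FOSL2 overlaps AC104695.3 on its own strand and FLJ31356 on the other, so reads in the overlap may have been tallied as ambiguous and left out.

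JUNB and JUND, the JUN proteins with weaker activating power, were higher in shRRM2/shp16 than in shRRM2, while JUN was lower. JUNB (ENSG00000171223; chromosome 19, 12791496 to 12793315, plus strand) was at 33.6, 31.4 and 32.8 CPM in the control libraries, 37.6, 39.3 and 35.7 in the shRRM2 libraries and 57.1, 51.4 and 52.7 with both hairpins. It was the single member called higher in shRRM2 than in control, by 0.20 ± 0.06 (adjusted p 0.00236), and it rose further by 0.52 ± 0.05 in shRRM2/shp16 against shRRM2 (adjusted p 1.39e-11). Against control the rise in shRRM2/shp16 was 0.72 ± 0.05 (adjusted p 5.25e-16), and the 3 groups did not overlap. JUNB overlaps HOOK2 on the opposite strand, so its reads are uncertain for the same reason as those of FOSB. JUND (ENSG00000130522; chromosome 19, 18279760 to 18281622, minus strand), the JUN gene that is on in resting cells, was at 56.9, 54.0 and 57.5 CPM in the control libraries, 54.6, 54.2 and 50.4 in the shRRM2 libraries and 61.7, 62.4 and 66.4 with both hairpins. Control and shRRM2 libraries of JUND overlapped, and their difference of -0.08 (95% confidence interval -0.18 to 0.01) missed the threshold (adjusted p 0.134). With no low-count filter it passed, at -0.12 and an adjusted p of 0.0433 (0.0433 to 0.991 over all fits). In shRRM2/shp16 JUND was higher than in shRRM2 by 0.26 ± 0.05 (adjusted p 6.39e-06) and higher than in control by 0.18 ± 0.05 (adjusted p 7.92e-04).

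ATF3 (ENSG00000162772; chromosome 1, 212565334 to 212620777, plus strand), a stress-induced factor that pairs with JUN proteins and often represses, rose in shRRM2/shp16. It was at 9.76, 9.89 and 10.4 CPM in the control libraries, 10.8, 11.8 and 10.6 in the shRRM2 libraries and 16.4, 17.6 and 16.2 with both hairpins. The control and shRRM2 libraries were close without overlapping, and the doubly targeted libraries stood apart from both. The rise was 0.60 ± 0.08 against shRRM2 (adjusted p 4.28e-08) and 0.75 ± 0.08 against control (adjusted p 1.34e-10). In shRRM2 against control the difference of 0.15 (95% confidence interval -0.04 to 0.33) did not pass with edgeR (adjusted p 0.160), while the limma fit of the deposited RPKM gave 0.31 (adjusted p 0.0204; 0.0204 to 0.515 over all fits). Restricted to the 8 matching columns, an option added once the data had been seen, limma gave 0.21 (adjusted p 0.0369).

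IER3, which encodes a short-lived stress protein of the cell survival response, could not be measured. The symbol belongs to 6 identifiers in the files. The one with most reads (ENSG00000137331; chromosome 6, 30743199 to 30744554, minus strand) held 12 reads over the 9 libraries, at 0 or 1 in control, 0 to 3 in shRRM2 and 1 to 5 in shRRM2/shp16, and the other 5 held 1 read in all. IER3 lies in the HLA region, where 102 of 113 protein-coding genes with 6 or more identifiers had at most 27 reads over the 9 libraries (an average of 3 per library), against 252 of 897 on the rest of chromosome 6. Of all tallied entries of a library, 40.4% to 44.9% had no unique place, and whether reads of IER3 are among them was not tested. IER3 did not pass the low-count filter, and no fold change is given.

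**Figure D1:**
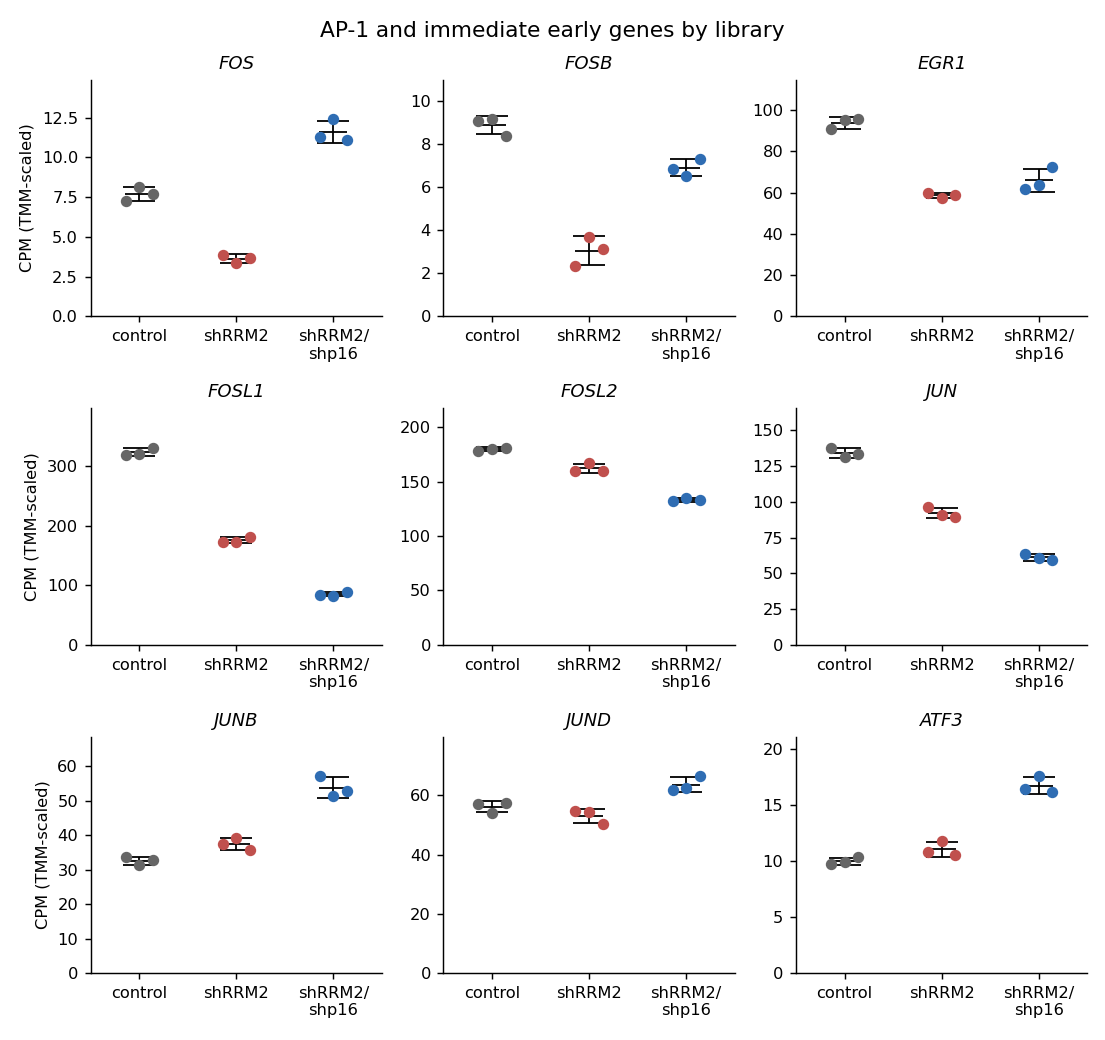
CPM (TMM-scaled, linear axis from 0, a separate scale per gene) of the 9 counted genes in each library of control, shRRM2 and shRRM2/shp16. Points are libraries and bars the mean ± SD (n = 3): FOS, FOSB and EGR1 are lowest in shRRM2, though EGR1 barely returns, while FOSL1, FOSL2 and JUN step down and JUNB and ATF3 are highest in shRRM2/shp16.

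Counted over the group, 9 of the 10 genes were tested. In shRRM2 against control 1 was higher (JUNB), 6 were lower and 2 did not pass, where 29.0% of all tested genes were higher and 31.8% lower. In shRRM2/shp16 against shRRM2 6 were higher and 3 lower, against 31.9% and 29.1% of all genes. In shRRM2/shp16 against control 4 were higher and 5 lower, against 30.0% and 32.4%. Since most genes of these libraries passed the threshold in each comparison, the number called says less than the size of the changes. The members' median size of change was 0.54, 0.59 and 0.60 on the log2 scale in the 3 comparisons, where the median over all tested genes was 0.32, 0.32 and 0.34. Their median signed change was -0.54, 0.26 and -0.37, beside medians of 0.00, 0.01 and 0.01 over all genes. The 3 comparisons share libraries, so a gene that is low in shRRM2 enters the first as lower and the second as higher from the same values. With limma on the deposited log2 RPKM columns, which are scaled by total reads, 62.4% of all calls in shRRM2/shp16 against shRRM2 were higher where the counts gave 52.3%, and in shRRM2/shp16 against control 59.5% where the counts gave 48.1%. The median of all genes moved to 0.11 in the latter on RPKM with a pseudocount of 0.1, and no called direction of a member changed under any of the fits run.

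**Figure D2:**
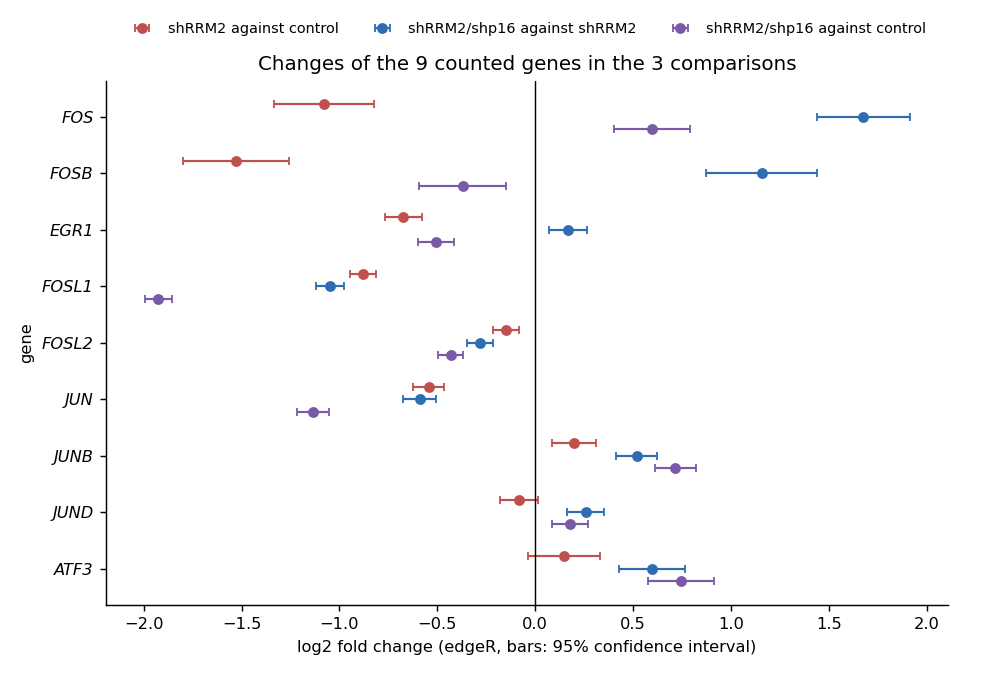
Log2 fold changes (edgeR) of the 9 counted genes on the x axis in the 3 comparisons, with 95% confidence intervals as bars. FOSL1 reaches -1.93 in shRRM2/shp16 against control, while FOS runs from -1.08 in shRRM2 against control to 1.68 in shRRM2/shp16 against shRRM2, and the intervals of JUND and ATF3 in shRRM2 against control cross 0.

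Levels can be compared between genes only per length, so CPM were divided by the gene length that the authors' table implies, which equals the merged exons of GENCODE 29 for the 9 counted genes, to give RPKM. In control FOSL1 led with 171 ± 3.47 RPKM (mean ± SD, n = 3), followed by JUN (37.9 ± 0.98), JUND (30.1 ± 1.0), EGR1 (29.9 ± 0.88), FOSL2 (25.1 ± 0.20) and JUNB (17.9 ± 0.61). ATF3 (2.48 ± 0.08), FOS (2.38 ± 0.14) and FOSB (1.60 ± 0.08) were the lowest. In control the libraries of JUND and EGR1, and those of ATF3 and FOS, overlapped. In shRRM2 the RPKM order became FOSL1 (93.1 ± 2.79), JUND (28.5 ± 1.23), JUN (26.0 ± 1.03), FOSL2 (22.6 ± 0.59), JUNB (20.6 ± 0.99), EGR1 (18.7 ± 0.42), ATF3 (2.74 ± 0.17), FOS (1.12 ± 0.08) and FOSB (0.552 ± 0.12), with JUND and JUN overlapping. In shRRM2/shp16 FOSL1 still led at 45.1 ± 1.68 RPKM, ahead of JUND (34.1 ± 1.36), JUNB (29.5 ± 1.64), EGR1 (21.0 ± 1.78), FOSL2 (18.6 ± 0.24), JUN (17.3 ± 0.64), ATF3 (4.14 ± 0.18), FOS (3.58 ± 0.22) and FOSB (1.24 ± 0.07), and no neighbours overlapped. JUN thus went from the second place of the 9 to the sixth. In the authors' group values for shRRM2/shp16 (probably FPKM) FOSL2 (34.8) stood ahead of JUND (32.5) and JUNB (28.5). FOS (10.7) stood there above ATF3 (10.4). The order between genes therefore depends on how levels are scaled, which the spread of the libraries does not cover.

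The make-up of both families shifted with these changes. FOSL1 supplied 85.5% ± 0.23 of the summed RPKM of FOS, FOSB, FOSL1 and FOSL2 in control, 79.3% ± 0.78 in shRRM2 and 65.8% ± 1.10 in shRRM2/shp16 (SD, n = 3). The share of FOSL2 went from 12.5% ± 0.14 to 19.3% ± 0.76 and 27.2% ± 0.77, although its own level fell. FOS held 1.19% ± 0.07, 0.955% ± 0.07 and 5.23% ± 0.40, and FOSB 0.798% ± 0.05, 0.470% ± 0.10 and 1.81% ± 0.07. In the JUN family, JUN held 44.1% ± 0.48 in control, 34.6% ± 0.88 in shRRM2 and 21.4% ± 0.70 in shRRM2/shp16. JUNB held 20.8% ± 0.13, 27.4% ± 0.76 and 36.5% ± 1.35, and JUND 35.1% ± 0.49, 37.9% ± 0.23 and 42.2% ± 1.85. The summed FOS family went from 201 ± 3.59 to 117 ± 2.54 and 68.5 ± 1.48 RPKM, while the summed JUN family stood at 85.9 ± 2.42, 75.1 ± 2.83 and 80.9 ± 1.84 RPKM. With these lengths the FOS family exceeded the JUN family by a ratio of 2.34 ± 0.08 in control and 1.57 ± 0.09 in shRRM2. It lay below the JUN family in shRRM2/shp16, at a ratio of 0.847 ± 0.02. The authors' group values for shRRM2/shp16 (probably FPKM) do not show that crossing. They are 56.9 for FOSL1, 34.8 for FOSL2, 10.7 for FOS and 2.45 for FOSB. JUND stands there at 32.5, JUNB at 28.5 and JUN at 15.7. FOSL1 holds a smaller share of its family in those values, and FOS a larger one. All of these are shares or levels of mRNA, given as a description without a test.

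**Figure D3:**
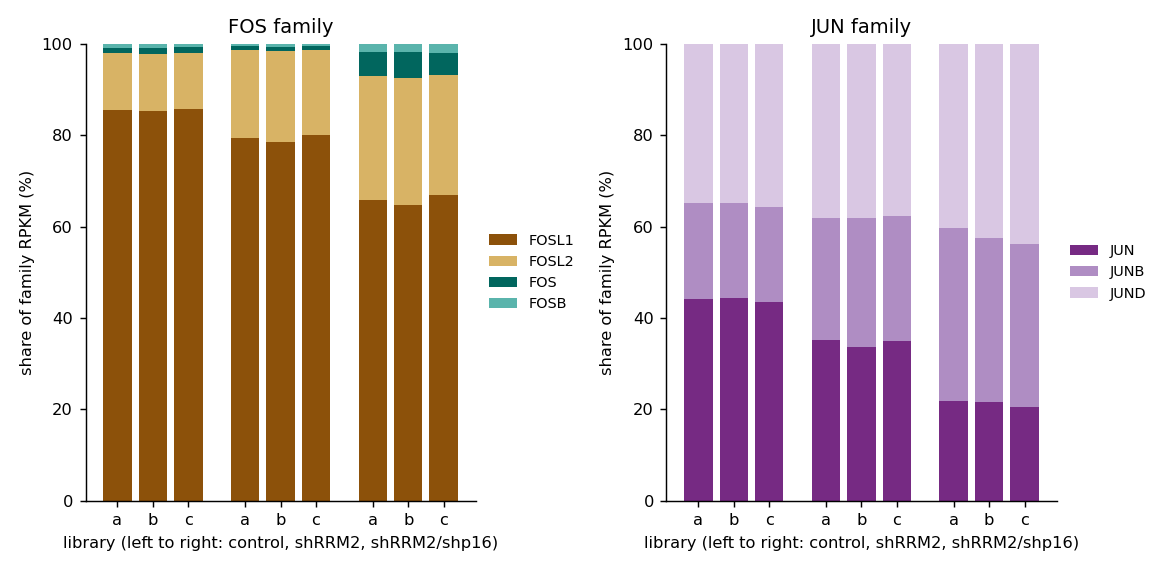
Share of each gene (%, bars stacked to the whole) in the summed RPKM of the FOS family (left) and of the JUN family (right), 1 bar per library. FOSL1 shrinks from 85.5% in control to 65.8% in shRRM2/shp16 and JUN from 44.1% to 21.4%, with replicates nearly alike.

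Genes with the most similar profile were sought for the 4 members whose group means spanned the widest range, FOSL1, FOS, FOSB and JUN. Likeness was the root mean square difference of log2 CPM over the 9 libraries, each gene centred on its own mean, among 10709 protein-coding genes. For FOSL1, which spanned 1.93 on the log2 scale, they were DPF3 (0.096), ENPP1 (0.11) and KCNK2 (0.11). DPF3, a subunit of the BAF chromatin remodelling complex, went from 26.8 to 15.1 and 7.38 CPM across control, shRRM2 and shRRM2/shp16. For FOS they were RHOU (0.11), TMEM119 (0.11) and KBTBD6 (0.11). RHOU, a small GTPase, went from 13.9 to 6.18 and 18.7 CPM. FOSB was followed less closely, by SAMD11 (0.17), LTBP4 (0.18) and VWA1 (0.18), the second of which, a binder of latent TGF-beta, went from 68.5 to 29.3 and 59.4 CPM. JUN was followed by CTNNAL1 (0.045), DOCK10 (0.053) and SLC7A5 (0.054), the last an amino acid transporter that went from 233 to 168 and 107 CPM.

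Companion lists place the members among related genes. They are described by counts and medians without a test, were chosen with earlier results of these data known, and are to be read against the share of all tested genes called: for shRRM2 against control 29.0% higher and 31.8% lower, for shRRM2/shp16 against shRRM2 31.9% and 29.1%, and for shRRM2/shp16 against control 30.0% and 32.4%. The median over all genes was 0.00, 0.01 and 0.01. Of 29 tested of 30 other immediate early genes, 9 were higher and 16 lower in shRRM2 against control (median -0.21), and 14 were higher and 14 lower in shRRM2/shp16 against shRRM2 (median 0.25). PTGS2, the inducible prostaglandin synthase COX-2, rose from 19.2 ± 0.86 to 79.1 ± 1.65 and 1008 ± 17.4 CPM, with log2 fold changes of 2.04 ± 0.05 and 3.67 ± 0.03 at the 2 steps. NR4A2, an orphan nuclear receptor, went from 80.2 ± 6.07 to 103 ± 2.77 and 423 ± 11.3 CPM, and its second step was 2.03 ± 0.04. BTG2, an antiproliferative p53 target, rose by 1.08 ± 0.07 in shRRM2 against control. KLF10 and KLF4, zinc finger factors, fell there by 0.94 ± 0.05 and 0.84 ± 0.09 on the log2 scale. CYR61, a matricellular protein and a target of YAP, fell by 1.53 ± 0.03 in shRRM2/shp16 against shRRM2, and KLF2 fell by 1.24 ± 0.08. In shRRM2/shp16 against control 13 of the 29 were higher and 9 lower (median 0.11), and KLF6 fell from 374 ± 17.2 to 134 ± 4.36 CPM. The list therefore moved in both directions in each comparison, as the members did.

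Among 10 tested of 11 other AP-1 and bZIP partners, 3 were higher and 2 lower in shRRM2 against control (median 0.02), 5 higher and 1 lower in shRRM2/shp16 against shRRM2 (median 0.16) and 4 higher and 2 lower in shRRM2/shp16 against control (median 0.04). With both directions added, calls were no more frequent in this list than among all genes in any of the 3 comparisons. MAFF, a small MAF protein without an activation domain, rose at both steps, from 33.4 ± 2.28 to 44.0 ± 0.99 and 80.7 ± 2.72 CPM. BATF3, a partner of JUN, fell by 0.67 ± 0.18 in shRRM2 against control and rose by 0.58 ± 0.19 in shRRM2/shp16 against shRRM2. It was at no more than 3.36 CPM in any group mean. JDP2, a repressor that dimerises with JUN, fell by 0.64 ± 0.07 in shRRM2/shp16 against shRRM2, from 26.2 ± 1.78 to 16.8 ± 0.11 CPM. Of the 22 upstream kinases and serum response factors, all tested, 3 were higher and 6 lower in shRRM2 against control, 7 higher and 8 lower in shRRM2/shp16 against shRRM2, and 4 higher and 11 lower in shRRM2/shp16 against control, with medians of -0.04, -0.08 and -0.15. In shRRM2 against control a smaller part of this list was called, in both directions, than the 29.0% and 31.8% of all genes. MAP2K6, a kinase that activates p38, had the widest change of the list in the first and second of these comparisons and went from 4.92 ± 1.11 to 0.764 ± 0.24 and 3.96 ± 0.76 CPM. ELK3, an ETS partner of serum response factor, fell by 0.75 ± 0.04 in shRRM2/shp16 against shRRM2, from 168 ± 2.34 to 99.6 ± 1.25 CPM. RPS6KA3, which encodes the ERK-activated kinase RSK2, rose by 0.57 ± 0.05. Of 7 regulators of AP-1 and EGR1 proteins, all tested, 1 was higher and 3 lower in shRRM2 against control, 4 higher and 2 lower in shRRM2/shp16 against shRRM2, and 2 higher and 2 lower in shRRM2/shp16 against control, with medians of -0.10, 0.27 and 0.09. NAB1, a corepressor of EGR1, went from 39.9 ± 1.70 to 42.6 ± 1.19 and 99.7 ± 1.02 CPM and rose by 1.23 ± 0.04 at the second step. NAB2, the other EGR1 corepressor and itself an EGR1 target, fell by 0.50 ± 0.04 in shRRM2 against control and rose by 0.43 ± 0.04 in shRRM2/shp16 against shRRM2.

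Of 16 tested of 17 genes known as AP-1 targets, 11 were higher and 3 lower in shRRM2 against control (median 0.44), 10 higher and 6 lower in shRRM2/shp16 against shRRM2 (median 0.87) and 10 higher and 6 lower in shRRM2/shp16 against control (median 1.37). Over all genes 29.0%, 31.9% and 30.0% were higher and 31.8%, 29.1% and 32.4% lower, with medians of 0.00, 0.01 and 0.01, and the difference of the list from them was not tested. MMP3, the matrix protease stromelysin, went from 19.9 ± 2.32 CPM in shRRM2 to 322 ± 2.24 CPM in shRRM2/shp16, a log2 fold change of 4.01 ± 0.05. IL24, a cytokine of the IL-10 family, rose from 0.484 ± 0.09 to 2.16 ± 0.68 CPM in shRRM2. In the other direction, CCND1 (cyclin D1) fell from 1974 ± 31.1 to 714 ± 9.64 CPM between shRRM2 and shRRM2/shp16, and HMGA1, a chromatin architectural protein, stood at 835 ± 5.72 CPM in control libraries, 700.4 ± 3.97 in shRRM2 libraries and 262 ± 6.93 with both hairpins. Most of these genes also answer to other factors, so a level here is not a reading of AP-1.

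**Figure D4:**
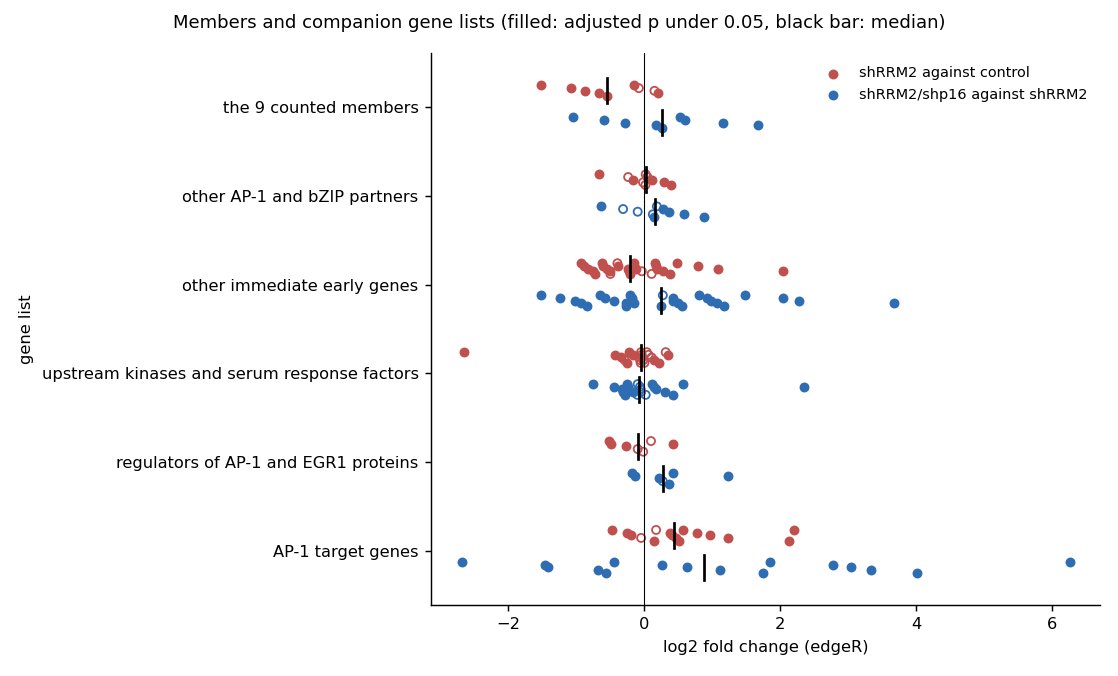
Log2 fold changes (edgeR, x axis) of the 9 counted members and of the tested genes of the 5 companion lists (rows). Within each row, red points above are shRRM2 against control and blue points below are shRRM2/shp16 against shRRM2. Filled points passed an adjusted p of 0.05 and open points did not, and black bars are medians, which for AP-1 targets lie at 0.44 and 0.87 while single genes spread to both sides of 0.

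For shRRM2/shp16 against shRRM2 the authors' own test is also on file. The authors' deposited table calls FOS (log2 fold change 1.82, q 4.44e-04), FOSL1 (-1.12, q 4.44e-04), JUN (-0.56, q 4.44e-04), JUNB (0.54, q 0.0107) and EGR1 (0.19, q 0.0221) significant. The authors' deposited table does not call FOSB (1.02, q 0.0627), JUND (0.21, q 0.0649), ATF3 (0.27, q 0.265) or FOSL2 (-0.27, q 0.530), all of which passed with edgeR on the counts in the same direction. IER3 is listed at 0 in both groups of the authors' deposited table. In the log2 RPKM columns of the authors' deposited table, shRRM2 replicate c is the library of the 9 whose column and counts differ: the column's values for the 9 members were 0.718 to 1.58 times those from the counts, with FOS at 1.77 where the counts give 1.12 RPKM and EGR1 at 24.0 where they give 18.7 RPKM. All CPM above, and the RPKM levels and shares, come from the count files, including that of shRRM2 replicate c.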

How the data were processed

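RNA was measured in 9 IMR90 libraries. The authors deposited raw read counts per Ensembl gene, in the layout of HTSeq. The submitters' processing notes name TopHat2 2.0.9, Cufflinks 2.0.2, Cuffdiff and GRCh38. The annotation release and strand setting are not given in the sources used here. Tally lines that name no gene were left out: per library, reads outside genes made up 17.6% to 28.8%, with no overlap between the groups, and ambiguous reads 3.74% to 6.02% of uniquely aligned reads. The ambiguous share was lower in every shRRM2 library than in any library of the other groups. The authors also deposited a table with log2 RPKM per library, scaled per base of gene length with 1 added before the log, as calculated back from the counts, and, per the file headers, group values (probably FPKM), a log2 fold change, a test statistic (a score, not used), p-values and q-values for shRRM2/shp16 against shRRM2. There were 0 columns of unmatched samples.

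Counts were tested with edgeR 4.0.16 (R 4.3.3): filterByExpr, TMM factors, 1 quasi-likelihood fit of all 9 libraries with a coefficient per group (6 residual degrees of freedom), two-sided tests, Benjamini-Hochberg adjustment over 16561 genes and a threshold of 0.05. The steps were tested on simulated data. Alternatives were RLE factors, DESeq2 1.42.0, other filters, 6 libraries only, a replicate block, limma 3.58.1 on the authors' RPKM values, and leaving out each library. Counts carry no molecular identifiers, so counting error understates the error. Positions come from GENCODE 29 and promoters from RefSeq.

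The members and lists were chosen with earlier results of these data known. The named list genes were the 2 highest and 2 lowest log2 fold changes past the threshold per list and comparison, at a mean log2 CPM of 1 or more, of which a part is given. The gene profiles closest to a member were sought among protein-coding genes at a mean log2 CPM of 2 or more.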

Additional observations from a re-analysis of the deposited data

How the results depend on the processing

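Under every alternative run, the members changed numbered 7 or 8 in shRRM2 against control and 8 or 9 in each of the other comparisons, and no called direction was reversed. Of the single-gene values, 422 stayed on their side of the threshold, 6 lost and 4 gained a call. These are the EGR1, FOSB, FOSL2, JUND and ATF3 values given above, and ATF3 also passed in shRRM2 against control on the deposited log2 RPKM as given (adjusted p 0.0495), while EGR1 was lost in shRRM2/shp16 against shRRM2 on both 9-column RPKM fits (adjusted p 0.475 and 0.407). With the replicate letter as a block, 7, 9 and 9 members were called, as without it, and all genes called numbered 10101, 10134 and 10388 beside 10079, 10116 and 10339. The letters were not taken as pairs, since deviations of same-letter libraries correlated at -0.02 to 0.05 over tested genes. The family shares and the order of levels used 1 set of lengths, the merged exons, which the authors' table also implies. How they depend on the length was not tested. The authors' group values for shRRM2 (probably FPKM) differ from the RPKM used here by gene. FOS is at 3.02 against 1.12, FOSL2 at 41.9 against 22.6 and JUN at 23.2 against 26.0. The depth of FOS and FOSB in shRRM2, 37 to 64 reads per library, limits small differences there, and IER3 was below what these counts can measure.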
